A study of Mus musculus with 12 samples.

Results

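Srebf1, Mlxipl, Pklr and Pnpla3 are 4 mouse genes that tie carbohydrate supply to fat synthesis in the liver, and the CTCF binding sites around them were examined in fed and starved animals. The genes were picked by name, with earlier results of these data known, and the rule that finds their sites uses no measured value. They make up 4 of 49993 positioned RefSeq genes. Every CTCF site that touched a gene body or the 50 kb on either side of it was taken, which gave 77 of the 76061 sites found across the genome. CTCF, a DNA-binding protein with many zinc fingers, marks insulators and holds the feet of chromatin loops. Its binding had been mapped with ChIP-seq, the sequencing of immunoprecipitated chromatin, in whole, snap-frozen livers of wild-type male C57BL6/Ncrl mice aged 3 to 4 months and kept on normal chow. The fed group had free access to food and gave livers at ZT16 (zeitgeber time, hours after lights on). The starved group had gone without food for 24 h and gave livers at ZT13, so feeding and collection time cannot be told apart. Each group had 3 ChIP libraries, each with its own list of called peaks, and the input libraries were not analysed here. Nothing in the labels says whether replicate libraries are separate mice, and p-values therefore cover only the spread among the libraries, part or all of which could be technical. In whole liver, fewer bound cells and weaker binding per cell cannot be told apart, and a CTCF map does not show which cell types a sample holds.

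Srebf1 encodes SREBP-1, the membrane-bound factor that insulin and sterol sensing release to the nucleus to switch on genes of fatty acid synthesis. Mlxipl encodes ChREBP, which pairs with Mlx and binds carbohydrate response elements when glucose metabolites build up. Pklr, the pyruvate kinase of liver and red cells, catalyses the last step of glycolysis and is the classical ChREBP target. Pnpla3 encodes a lipid droplet protein of hepatocytes whose transcript is induced by both factors on refeeding. CTCF sites near such genes are known as candidate boundaries and loop anchors, which say nothing by themselves about transcription.

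A peak at a site is given by its rank, the percentile of its score within its own library's list, where 100 is the best-scored peak. The scores are the authors' own, and the lists differed in length, from 49030 to 74950 peaks in fed and from 23926 to 30752 in starved livers, with read depth unknown. Ranks from lists of different lengths therefore describe each list and measure no change. A site called in all 3 fed libraries is called a fed site here. The label liver could not be checked with marker genes, since a peak list holds no expression.

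CTCF peaks lay at an annotated start of Mlxipl, Pklr and Pnpla3 in all 3 fed libraries and in 2 or 3 starved libraries. At Srebf1, only the middle of 3 starts had a peak, called in fed 3 alone at a rank of 10.2. The promoter windows came from RefSeq (GRCm38.p6, the same build as mm10) and run from 250 bases before to 50 bases after a start; all 4 genes matched, with 8 windows. Those of Mlxipl, Pklr and Pnpla3 that a fed site overlapped are shown up to the start, because peaks recurred there and because those of Mlxipl and Pklr hold elements through which the pathway is known to act. Capitals mark the E-box CACGTG in Mlxipl and the carbohydrate response element, CACGNG and CNCGTG spaced by 5 bases, in Pklr; the Pnpla3 stretch held neither.
Mlxipl, upstream start, chr5:135089640-135089889, plus strand: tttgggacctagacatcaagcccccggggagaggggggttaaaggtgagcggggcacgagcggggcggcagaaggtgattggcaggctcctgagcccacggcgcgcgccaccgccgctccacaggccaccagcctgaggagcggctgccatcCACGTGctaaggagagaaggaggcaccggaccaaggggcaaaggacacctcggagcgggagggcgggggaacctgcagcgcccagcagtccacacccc
Pklr, downstream start, chr3:89136373-89136622, plus strand: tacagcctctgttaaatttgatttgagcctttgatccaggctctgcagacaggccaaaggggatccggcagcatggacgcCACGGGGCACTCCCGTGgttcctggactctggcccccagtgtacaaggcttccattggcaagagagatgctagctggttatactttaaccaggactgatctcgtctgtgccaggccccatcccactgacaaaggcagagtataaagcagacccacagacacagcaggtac
Pnpla3, chr15:84167566-84167815, plus strand: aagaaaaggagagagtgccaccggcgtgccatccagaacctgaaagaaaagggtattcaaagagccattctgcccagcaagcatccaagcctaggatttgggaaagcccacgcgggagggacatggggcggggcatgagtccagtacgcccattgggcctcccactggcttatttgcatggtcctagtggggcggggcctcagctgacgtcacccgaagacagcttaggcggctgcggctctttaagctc

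The last 121 bases of the Mlxipl stretch, 111 of the Pklr stretch and 96 of the Pnpla3 stretch lay inside a merged CTCF site. The Mlxipl E-box (chr5:135089792-135089797) was within its site. The Pklr element (chr3:89136453-89136469) ended 43 bp before its site began. Over the 32851 promoter windows of the table, 7.15% held CACGTG and 15 windows (0.0457%) held a carbohydrate response element of this spelling. The core of the CTCF motif, searched on both strands as AG, then A or G, then G or T, then GGC, was in 27.6% of the windows. Among the 8 windows of these genes it was in 2. At the upstream Mlxipl start it read GCCCTCT on the plus strand (chr5:135089929-135089935), inside the CTCF site. In the middle of the 3 Srebf1 windows it read AGGTGGC on the minus strand (chr11:60220621-60220627), inside a site that was called in fed 3 alone. A match describes letters in these windows and is not evidence of binding.

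Of all promoter windows in the genome, 7.9% were overlapped by a site called in all 6 libraries and 17.8% by a fed site. Mlxipl is known to be transcribed from a main start and from an alternative start further upstream, which gives the short, carbohydrate-induced form ChREBP-beta. The upstream window of Mlxipl was overlapped by a site in all 6 libraries (chr5:135089769-135090341), at ranks of 68.3, 50.1 and 73.4 in fed 1 to 3 and 22.1, 25.4 and 28.7 in starved 1 to 3. The downstream window had no site, and the nearest (chr5:135107530-135108284) began 639 bp past that start. Pklr has an upstream start known from red cell precursors and a downstream start known from liver. The site over the downstream start (chr3:89136512-89136968) was called in all 3 fed libraries, at 53.0, 49.3 and 70.4, in starved 1 at 26.5 and in starved 2 at 7.51, and not in starved 3. The Pnpla3 window was overlapped by a site (chr15:84167720-84168258) at 60.5, 61.4 and 71.4 in the fed libraries, 26.9 in starved 1 and 4.19 in starved 2, again with no peak in starved 3. Srebf1 had no fed site over any of its 3 windows.

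**Figure D1:**
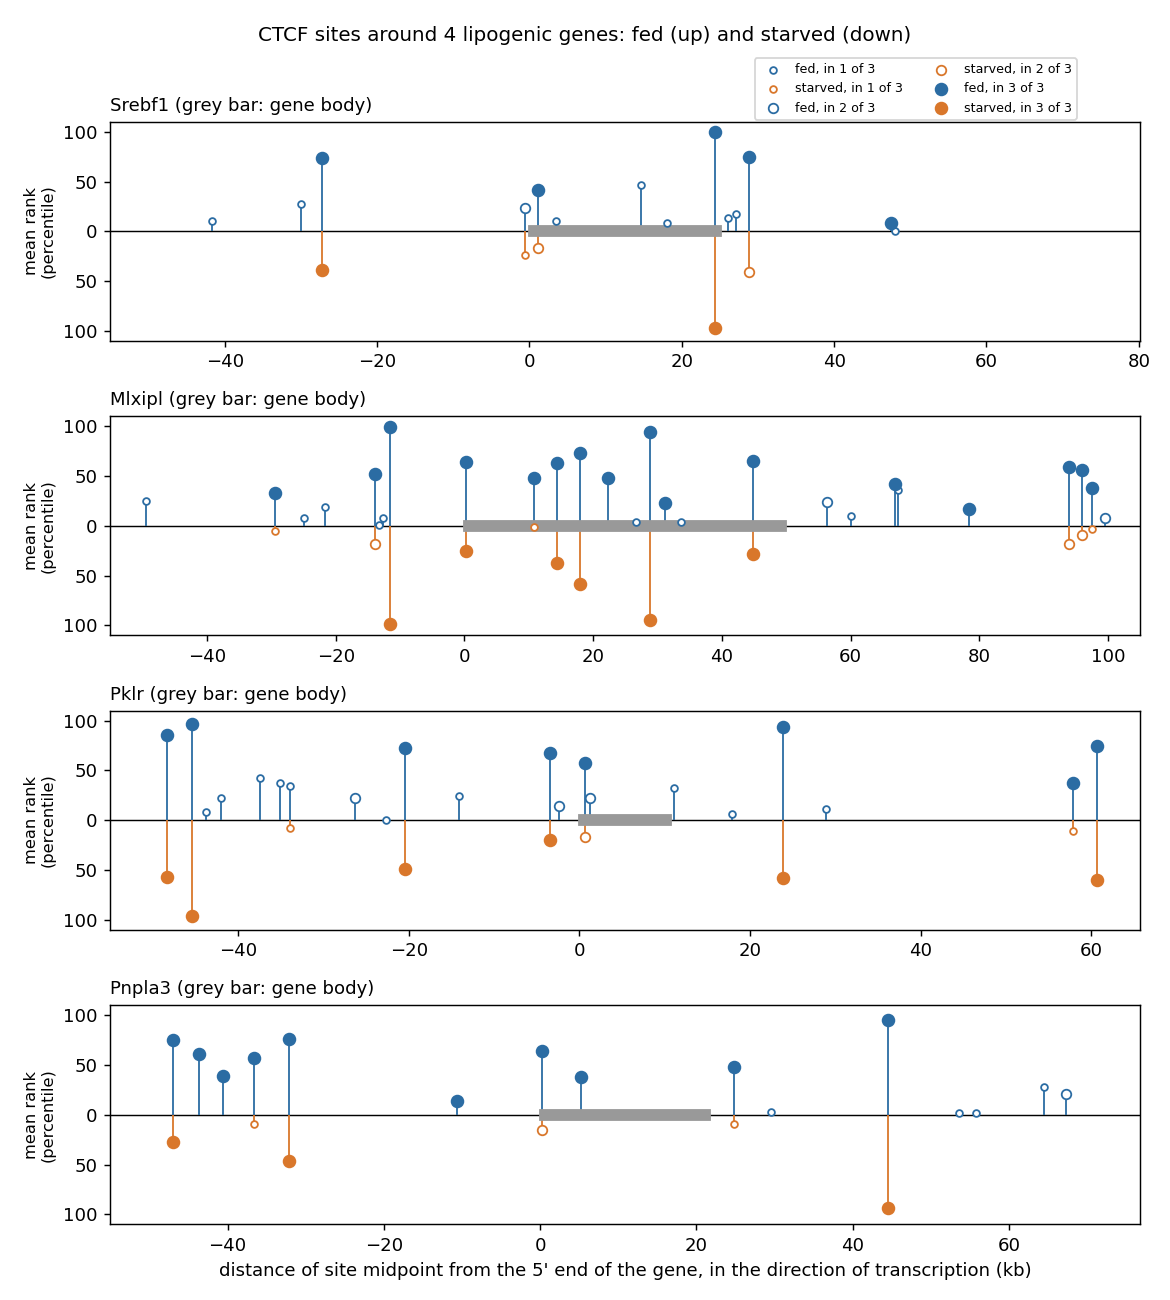
CTCF sites in the windows of the 4 genes, placed by the distance in kb of their midpoint from the 5' end of the gene in the direction of transcription; the y axis is the mean rank (percentile) over the libraries that held the site, fed upward and starved downward. The size and fill of a point give the number of libraries (filled, 3 of 3), and each gene has at least 1 site above rank 90 in both directions, which for Srebf1 lies at the 3' end.

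Srebf1 lies on the minus strand of chromosome 11 (60199084 to 60224186) and had 14 sites in its window, 5 of them in the gene body. Its best site (chr11:60199354-60200412) lay just inside the 3' end, beside the end of the convergent gene Rai1, and was called in every library. Its ranks were 98.9, 99.6 and 99.5 in the fed lists and 98.9, 99.7 and 93.9 in the starved lists, so it stood near the top of each. A site 3422 bp beyond the 3' end, inside Rai1 (chr11:60194994-60195662), ranked at 80.3, 70.1 and 73.8 in the fed lists, 63.7 in starved 1 and 19.0 in starved 3, and had no peak in starved 2. Upstream of Srebf1, a site inside Tom1l2 (chr11:60251010-60251796) ranked at 66.3, 73.0 and 80.6 in the fed and 51.0, 15.4 and 51.6 in the starved lists. The fed site nearest to an annotated start, 272 bp from it (chr11:60222853-60223310), ranked at 32.9, 36.1 and 56.0 in the fed lists, 25.3 in starved 1 and 7.74 in starved 3. The remaining fed site, 22160 bp past the 3' end (chr11:60176602-60176924), was weak at 1.93, 8.85 and 15.6 and had no starved peak. Of the other 9 sites, 8 were called in 1 library each, 7 of those in fed 3. Across the genome 27.1% of sites were called in 1 library, and 24.7% in fed 3 alone.

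Mlxipl, on the plus strand of chromosome 5 (135089890 to 135139768), had the largest set, with 27 sites of which 10 touched the gene body. Its best site lay 11062 bp upstream over the start of Vps37d (chr5:135077814-135078828) and ranked at 99.4, 99.2 and 99.2 in the fed and 98.4, 99.4 and 98.3 in the starved lists. A strong site also lay within the gene (chr5:135118133-135119139), at 94.4, 97.0 and 92.4 in the fed and 94.4, 95.0 and 94.0 in the starved lists. These sites flank the upstream part of the gene, and both kept to the top 10% of every list. Between them, 3 sites were called in all 6 libraries: the upstream start described above, a site 2402 bp from the main start (chr5:135103937-135104489) and the site just past that start. The latter ranked at 67.9, 71.4 and 78.8 in the fed and 55.2, 54.7 and 64.3 in the starved lists. A site close to the 3' end (chr5:135134422-135135133) was also called in all 6, at 65.0, 56.6 and 73.3 and at 34.8, 23.3 and 26.7. The body of Mlxipl further held a fed site with a peak in starved 3 alone (chr5:135100394-135100856) and 2 fed sites with no starved peak. Of the latter, chr5:135111876-135112418 ranked at 43.6, 38.5 and 61.9 and chr5:135120902-135121125 at 16.5, 21.8 and 31.1. Downstream, sites at Tbl2 (chr5:135156504-135156945, mean fed rank 41.6) and over the start of Bcl7b (chr5:135168142-135168419, 16.6) were fed sites with no starved peak as well.

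Pklr, on the plus strand of chromosome 3 (89136122 to 89146815), is the shortest of the 4 genes and had 21 sites in its window, 2 of them in the body. Its strongest sites lay well away from it. The best (chr3:89090098-89091389), over a start of Rusc1, ranked at 93.1, 98.7 and 97.2 in the fed and 92.4, 96.6 and 98.2 in the starved lists. On the other side, a site across the outer edge of the channel gene Hcn3 (chr3:89159403-89160645) ranked at 88.3, 97.4 and 94.9 in the fed and 74.2, 49.8 and 50.1 in the starved lists. The site 3117 bp upstream of Pklr (chr3:89132366-89133005) was called in all 6 libraries, at 64.2, 59.0 and 80.2 in the fed and 11.5, 5.62 and 43.5 in the starved lists, so starved 1 and starved 2 placed it low. Further sites in all 6 libraries lay at 20013, 47931 and 49743 bp from the gene. All 8 fed sites of the window were called in 1 or more starved libraries. Another 8 sites were called in fed 3 alone, among them 3 at Fdps, the farnesyl diphosphate synthase gene of sterol synthesis.

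Pnpla3, on the plus strand of chromosome 15 (84167776 to 84189521), had 15 sites, 2 of them in the body. The best lay 22162 bp past the gene inside Samm50 (chr15:84211683-84212824) and ranked at 94.7, 99.1 and 91.4 in the fed and 97.6, 86.9 and 96.4 in the starved lists. Upstream, 5 fed sites lay between 31775 and 46531 bp from the gene, around the lncRNA Gm33432 and Pnpla5. The outermost (chr15:84120463-84121245) ranked at 75.9, 68.0 and 82.0 in the fed and 41.0, 24.5 and 16.4 in the starved lists. The innermost of the 5 (chr15:84135189-84136001) ranked at 76.4, 66.1 and 85.5 in the fed and 60.7, 17.7 and 59.8 in the starved lists, and these were the only 2 of the 5 in all 6 libraries. Between them, chr15:84123803-84124433 ranked at 64.4, 44.9 and 74.7 in the fed lists and had no starved peak. It was the best-ranked such site among the 4 genes, with a mean fed rank of 61.3. The other sites of Pnpla3 with all 3 fed libraries and no starved peak were chr15:84127031-84127440 (mean fed rank 39.1), a site inside the gene 4944 bp from its start (chr15:84172760-84173159, 37.6) and a weak one upstream (chr15:84156960-84157235, 13.5).

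**Figure D2:**
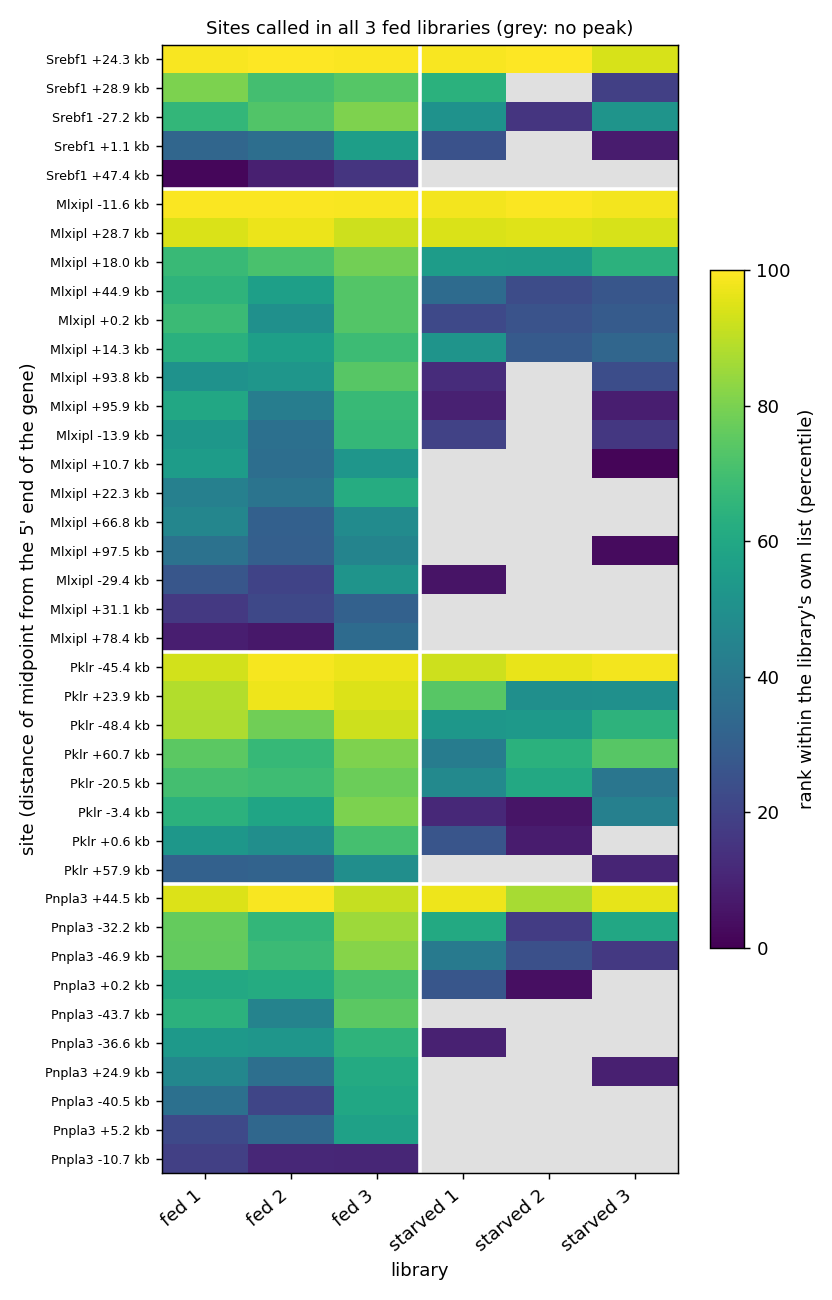
Rank (percentile within the library's own list, colour scale) of the 39 fed sites of the 4 genes in each of the 6 libraries, ordered within a gene by mean fed rank; rows are named by the distance of the midpoint from the 5' end of the gene, and grey means no peak. Grey cells gather in the starved columns of the rows with low fed ranks, and 9 rows have no starved peak.

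Over the 4 genes, 39 of the 77 sites were fed sites. No starved peak was found at 9 of the 39 (23.1%, exact Clopper-Pearson 95% interval 11.1 to 39.3), where 29.1% of all fed sites in the genome had none. All 3 starved libraries held 17 of the 39 (43.6%, 27.8 to 60.4), against 49.3% of all fed sites. The intervals cover counting error only, and both contain the value for all sites. By gene, no starved peak was found at 1 of 5 fed sites of Srebf1, 4 of 16 of Mlxipl, 0 of 8 of Pklr and 4 of 10 of Pnpla3. The exact 95% intervals were 0.505 to 71.6% for Srebf1, 7.27 to 52.4% for Mlxipl, 0 to 36.9% for Pklr and 12.2 to 73.8% for Pnpla3. They overlapped and each held the 29.1% of all fed sites, and the difference between the genes was not tested. Without fed 2, the shortest fed list, 31.1% of 45 such sites had no starved peak, and without starved 3 it was 33.3% of the 39. The shares over all fed sites without these libraries were not computed, so neither value can be set against the 29.1%. Of the 77 sites, 0 were called in a starved library without a fed peak, which was rare in the genome too, at 0.0999% of all sites. Another 30 of the 77 sites were called in 1 library each, 26 of them in fed 3, the longest list. Across the genome 27.1% of sites were called in 1 library and 24.7% in fed 3 alone, smaller shares than among the 77.

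Whether a starved library held a site followed its fed rank here as elsewhere in the genome. Of the 14 fed sites with a mean fed rank from 70 upward, all 14 had a starved peak and 13 had 3, where 99.1% of all such sites had 3. From 50 to 70, 10 of 11 had at least 1 starved peak and 4 had 3, against 90.4% and 42.7% of all sites. From 30 to 50 it was 6 of 10, against 35.5%, and below 30 it was 0 of 4, against 11.01%. The median fed rank was 61.3 for the 39 sites and 61.05 for all fed sites. It was 73.3 for Srebf1, 54.3 for Mlxipl, 73.2 for Pklr and 59.2 for Pnpla3.

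The number of sites called around each gene was higher in every fed than in every starved library. Over the 4 genes together the fed libraries called 48, 41 and 73 sites and the starved libraries 27, 19 and 27. The means were 54.0 ± 16.8 and 24.3 ± 4.62 (SD, n = 3 each), a ratio of 2.22 (two-sided exact permutation test, p = 0.1, which is the lower limit for 3 libraries against 3). Of all protein-coding genes with a site in their window, 74.6% had every fed library above every starved library, so this separation was common. For Mlxipl the libraries called 20, 16 and 25 sites in fed and 10, 6 and 11 in starved livers. For Pklr they called 11, 9 and 20 against 7, 7 and 8, for Pnpla3 11, 10 and 15 against 5, 4 and 4, and for Srebf1 6, 6 and 13 against 5, 2 and 4. Each gene reached an exact permutation p of 0.1, also after Benjamini-Hochberg adjustment over the 4 genes. Without fed 3, the mean difference fell from 4.67 to 2.33 sites for Srebf1 and from 6 to 2.67 for Pklr.

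To set the counts against the length of each list, the share of a gene's sites held by a library was divided by the share of all sites held by that library. For the 4 genes together the log2 of this relative share was −0.16 ± 0.10 in fed and −0.19 ± 0.10 in starved livers (SD, n = 3 each), a difference of −0.03 with an exact permutation p of 0.8. Pnpla3 had the largest difference, with 0.05 ± 0.04 in fed and −0.31 ± 0.17 in starved livers (−0.36; exact permutation p = 0.1, adjusted over the 4 genes 0.4). Its values were 0.03, 0.10 and 0.04 in the fed and −0.23, −0.19 and −0.50 in the starved libraries and did not overlap. That held in this direction for 17.8% of protein-coding genes with a site. Pklr went the other way, at −0.34 ± 0.27 and −0.03 ± 0.18 (exact permutation p = 0.2, adjusted 0.4). For Mlxipl and Srebf1 the differences were −0.11 and −0.09 (exact permutation p = 0.7 and 0.9, adjusted 0.9 each), smaller than the spread between the starved libraries.

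**Figure D3:**
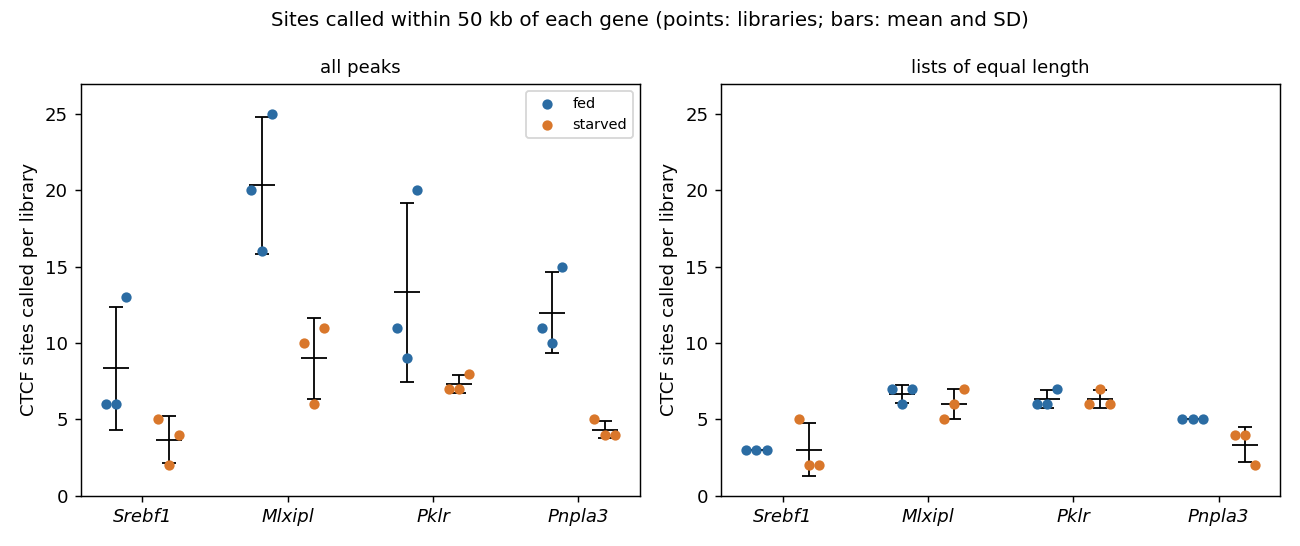
Number of CTCF sites that each library called within 50 kb of each gene (points, 3 fed and 3 starved libraries; bars, mean and SD), with all peaks on the left and with lists of equal length on the right. Fed points lie above starved points for every gene on the left, and on the right for Pnpla3 alone.

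When each list was cut to its 23926 best-scored peaks, the length of the shortest list, the counts of fed and starved livers drew close. The fed libraries then called 21, 20 and 22 of the members' sites and the starved libraries 20, 19 and 17, a mean difference of 2.33 (exact permutation p = 0.2). Srebf1 had 3.00 ± 0 sites in fed and 3.00 ± 1.73 in starved livers, and Pklr 6.33 ± 0.58 in each (SD, n = 3 each). Mlxipl had 7, 6 and 7 sites in fed and 5, 6 and 7 in starved lists. Pnpla3 had 5, 5 and 5 in fed and 4, 4 and 2 in starved lists, a difference of 1.67 (exact permutation p = 0.1, adjusted over the 4 genes 0.4). Such a separation, every fed above every starved list, was found at 2.19% of protein-coding genes with a site before the cut. That base also takes in windows that kept few or no sites, where a separation is hard or impossible. The share among windows with as many sites as that of Pnpla3 was not computed. Of the 18 sites held by all 3 fed lists at equal length, 0 had no starved peak (1.2% of all such sites) and 14 were held by all 3 starved lists (88.9% of all such sites). The 4 that fell short were the Rai1 site near Srebf1, the site 3117 bp upstream of Pklr, the outermost upstream site of Pnpla3 and the site at the start of Pnpla3. The sites over the Pklr and Mlxipl starts were not among the 18, because not every fed list kept them. The Pklr one was kept in fed 3 (rank among kept peaks 7.36) and in starved 1 and starved 2 (5.59 and 7.51). The Mlxipl one was kept in fed 1 and fed 3 (25.7 and 16.5) and in starved 2 and starved 3 (25.4 and 10.98). Neither was thus held by more fed than starved lists at equal length.

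Within lists of equal length, ranks can be set side by side, and most of the 14 sites held by all 6 lists overlapped between fed and starved livers. The Hcn3 site near Pklr was lower after starvation, at 72.7, 94.8 and 84.1 in the fed and 66.8, 49.8 and 37.7 in the starved lists, a mean difference of −32.4 points (83.8 ± 11.05 and 51.4 ± 14.6, SD, n = 3 each). Every fed rank was above every starved rank at this site, as at 7.77% of all 19289 sites in all 6 lists. The sites around the main Mlxipl start ranked higher in the starved than in the fed lists after the cut, but lower before it. Before the cut, the one upstream of that start ranked at 63.3, 56.4 and 68.7 in the fed and 51.9, 28.3 and 33.2 in the starved lists. The cut took more peaks from the fed lists, so a rank here is a place among the kept peaks and no amount of binding. After the cut, the upstream one ranked at 13.98, 10.6 and 2.05 in the fed and 38.2, 28.3 and 16.6 in the starved lists. The one just past the start then ranked at 24.8, 41.5 and 33.6 in the fed and 42.5, 54.7 and 55.4 in the starved lists. The differences were 18.9 and 17.6 points, and the starved ranks lay above every fed rank, as at 7.26% of all sites. Each of these 3 sites had an exact permutation p of 0.1 and, with Benjamini-Hochberg adjustment over all 19289 sites, an adjusted p of 0.665, so none passed. An unadjusted p under 0.05 is out of reach here, and 0 of the 19289 sites had one. The median difference over the 14 sites was 2.54 points and over all sites −0.20.

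**Figure D4:**
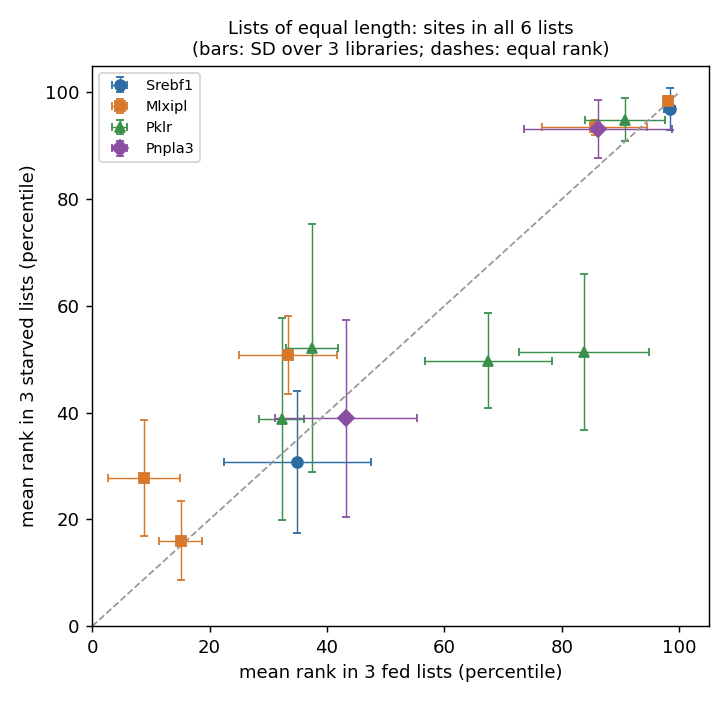
Mean rank in the 3 starved lists against mean rank in the 3 fed lists, each list cut to the same length, for the 14 sites of the 4 genes held by all 6 lists; bars are the SD over 3 libraries and the dashed line marks equal rank. The 4 genes each have a site at the top right, while a Pklr site at 83.8 and 51.4 lies farthest below the line and a Mlxipl site at 8.86 and 27.7 farthest above it.

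Merged CTCF sites, counted whether 1 library or all 6 called them, were dense around these genes. The windows held 11.2 sites per 100 kb at Srebf1, 18.0 at Mlxipl, 19.0 at Pklr and 12.3 at Pnpla3, where the median over 21883 protein-coding genes was 5.43. The share of protein-coding genes with a lower density was 82.7%, 96.9%, 97.7% and 86.4%. These densities include the 30 of the 77 sites called in 1 library each, 26 of them in fed 3. At Pklr, 8 of the 21 sites were fed sites and another 8 were called in fed 3 alone. The density of fed sites alone was not computed. At the 50 kb edge of the windows, the outermost site of Mlxipl inside was called in 2 fed libraries at a mean rank of 7.73, and the nearest outside, at 50903 bp, in 1 at 12.3. For Pnpla3 the outermost site inside was held by all 6 libraries (mean fed rank 75.3), and the nearest outside, at 51526 bp, by 3 fed and 1 starved library (56.3). For Pklr the outermost inside was held by all 6 (74.1) and the nearest outside, at 67210 bp, by 1 (3.67), and for Srebf1 both were held by 1 fed library, at 9.92 and 28.6.

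The genes whose pattern was most like that of each member were sought among protein-coding genes with the same number of sites in their window. The measure was the mean absolute difference, over the 6 libraries, of the mean rank of the window's sites, with 0 for a site that was not called. Closest to Srebf1 were Pik3c2a, Slc35e2 and U2af2, at 1.91, 1.91 and 1.94 points among 789 genes with a median of 9.12. Closest to Mlxipl were Ier2, Rptor and Ccdc194, at 1.46, 1.50 and 1.60 among 51 genes with a median of 4.52. Pklr was nearest to Armc7, at 0.877, and to the neighbours 6030468B19Rik and Syngr2, which share their sites, at 1.10 each, among 259 genes with a median of 4.98. Pnpla3 was nearest to Cyb561a3, Zscan22 and Cdpf1, at 0.694, 1.12 and 1.37, among 663 genes with a median of 6.998.

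The wider pathway was read from lists of partners, glucose-responsive genes and targets, with sites taken within 5 kb of the gene body. Over all protein-coding genes, 29.8% of the fed sites so placed had no starved peak and 47.4% were held by all 3 starved libraries, and 66.1% of protein-coding genes had a fed site within 5 kb. Among the 13 partners and regulators of SREBP and ChREBP, all 13 had a fed site, and of their 39 fed sites 16 (41.0%) had no starved peak and 14 (35.9%) were held by all 3 starved libraries. Their median fed rank was 39.4, against 59.3 for all sites within 5 kb of a protein-coding gene. The best-ranked sites in all 6 libraries were those of Scap, the sterol sensor that escorts SREBP, with mean ranks of 96.02 in fed and 95.4 in starved livers, and of Srebf2, the SREBP of sterol synthesis, with 94.5 and 81.7. The best-ranked fed sites with no starved peak were at Mlxip, the ChREBP paralogue, and again at Srebf2, at mean fed ranks of 39.6 and 38.9. Insig1, Insig2, Mbtps1, Mbtps2 and Usf1 had a fed site with no starved peak each and no site in all 6 libraries. The mean fed ranks of these sites were low, at 24.6, 24.0, 31.1, 35.1 and 12.3 in that order. Insig2, Mbtps1 and Mbtps2 each had another fed site, which did have a starved peak.

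Of the 10 genes of glucose entry and glucose response, 7 had a fed site, and 5 of their 22 fed sites had no starved peak while 11 were held by all 3 starved libraries. The best sites were at Khk, the fructose kinase, with mean ranks of 94.2 in fed and 97.5 in starved livers, and at Tkfc, which phosphorylates glyceraldehyde from fructose, with 88.4 and 76.7. Slc2a2, the glucose transporter of hepatocytes, had a fed site with no starved peak at a mean fed rank of 52.7, and Khk another at 38.04. Of the 10 targets in fatty acid synthesis, 8 had a fed site, and of their 42 fed sites 10 had no starved peak and 15 were held by all 3 starved libraries. The best sites in all 6 libraries were at Acaca, which makes malonyl-CoA, with mean ranks of 86.2 and 87.6, and at Me1, the malic enzyme that supplies NADPH, with 85.5 and 73.0. Without a starved peak, the best-ranked fed sites of this list were at Acaca and at Elovl6, the elongase of long-chain fatty acids, at mean fed ranks of 51.02 and 49.5. Among 14 marker genes of other liver cells, 4 had a fed site, and 1 of their 10 fed sites had no starved peak, that of the endothelial gene Pecam1 at a mean fed rank of 34.2. The best sites of this list in all 6 libraries were at Col1a1 of fibroblasts, with mean ranks of 98.7 and 97.7, and at Stab2 of sinusoidal endothelium, with 87.2 and 72.8.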

How the data were processed

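CTCF ChIP-seq of 3 fed and 3 starved livers was analysed from 6 peak lists, 1 per library and not pooled, with groups from the sample titles. The deposited score of each peak is the authors' own value; no label or header names its kind. The submitters' processing notes list MACS2, HOMER, BWA 0.7.5a, bedtools 2.17, FastQC and SAMtools without saying what each did, and name mm10. They do not say how inputs or duplicates were handled, and the depth is unknown.

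Sites are merged peaks that share 1 bp or more; coordinates are mm10, counted from 1. Gene positions, strands and promoter windows came from RefSeq (GRCm38.p6). No genome sequence was used, so site sequences are not analysed here. Counts and relative shares were compared by two-sided exact permutation of the libraries (20 labellings), with Benjamini-Hochberg adjustment and a threshold of 0.05. Intervals are exact binomial at 95%. The genes and lists were chosen with earlier results of these data known. Named were the 4 genes with their sites, the 3 most alike genes for each, and up to 4 genes per list, 2 with the best fed site without a starved peak and 2 with the best site in all 6 libraries; Insig1, Insig2, Mbtps1, Mbtps2 and Usf1 were named after their values were seen. On made-up peaks, the counting step found 200 of 200 fed-only sites among 5000. Alternatives were a score limit, equal list length, trimming to 200 bp, merging within 500 bp, windows of 20 and 5 kb, fed sites in at least 2 libraries, rank among sites, leaving out each library and a replicate block. The software was scipy 1.17.1, numpy 2.4.6 and pandas 2.3.3 under Python 3.11.15, with matplotlib 3.10.9 for figures.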

Additional observations from a re-analysis of the deposited data

How the results depend on the processing

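More sites in fed than in starved libraries held for the 4 genes together under every alternative, with mean differences from 2.33 at equal list length to 36.2 without fed 2 (16 at the score limit, 15.7 and 10 with windows of 20 and 5 kb); without each library in turn the range was 20.2 to 36.2. The relative share of the 4 genes turned from −0.03 to 0.15 with a window of 5 kb (exact permutation p = 0.1), to 0.026 without fed 3 and to 0.026 without starved 2, in a range of −0.073 to 0.026 without each library. It was −0.21 at the score limit (exact permutation p = 0.1) and −0.15 at equal list length (p = 0.2), further below 0. For Srebf1 it turned to 0.33 at the score limit (the median of all scores, 30.4), to 0.036 with windows of 20 and 5 kb, to 0.10 without fed 3 and to 0.19 without starved 2 (−0.30 to 0.19 without each library). For Mlxipl it was −0.43 at the score limit, and it turned to 0.13 and 0.40 with windows of 20 and 5 kb and to 0.051 without starved 2 (−0.23 to 0.051 without each library), and for Pklr to −0.071 with a window of 5 kb. For Pnpla3 it was below 0 under each alternative, from −1.01 to −0.27. The cause of these turns was not tested. Of the fed sites, the share that lacked a starved peak was 0% at equal list length, 36.4% at the score limit, 32.6% with at least 2 fed libraries and 23.1 to 33.3% without each library. The share in all 3 starved libraries was 22.7% at the score limit, 77.8% at equal list length and 37.8 to 56.4% without each library. Over all fed sites in the genome, these 2 shares were 1.2% and 88.9% at equal list length. They were not computed for the other alternatives, so the members' values there cannot be set against the genome. The mean over libraries of the median rank of sites in all 6 libraries was 76.4 in fed and 55.5 in starved livers. A like gap was seen over all 22131 such sites in the genome. Their median ranks were 80.2, 77.3 and 85.2 in the fed and 63.6, 52.9 and 62.4 in the starved lists. At equal list length, where fewer peaks enter, the mean for the 4 genes was 57.3 in fed and 53.1 in starved livers. With the full lists and without each library in turn, the mean for the 4 genes was 73.7 to 78.9 in fed and 49.1 to 56.7 in starved livers. These means cover the sites in all remaining libraries, whose number rose from 17 to 22 without starved 2 and to 19 without starved 3. Of the 39 fed sites, the number of starved libraries was the same for 39 with trimmed or widely merged peaks, 25 at equal list length and 14 at the score limit. With a replicate block the difference in sites was 29.7 (exact sign-change p = 0.25, the smallest that 3 pairs allow) and that in relative share −0.03 (p = 0.5). Same-numbered libraries did not deviate together over 22131 sites (correlations of −0.004, −0.04 and 0.03). Differently numbered ones had correlations from −0.054 to 0.050. Such values cannot show whether a number marks a shared litter or day, and the labels do not say. The numbers were therefore not taken to pair the samples. Depth is unknown, so an absent peak means not called at that library's depth.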

Other observations

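The windows of the 4 genes also held promoters of neighbouring genes, and CTCF sites lay over some of them. No site lay over the promoter windows in range of Gm38501, Gm45927, Clk2, Gm16069, Fam189b, Pnpla5, Gm52212 and Parvb. Across the genome, 17.8% of promoter windows were overlapped by a fed site. In the Mlxipl window, which lies in the mouse counterpart of the Williams-Beuren region, sites overlapped promoter windows of Vps37d, Baz1b, Bcl7b, Bud23 and Tbl2. That of Vps37d was in all 6 libraries, with mean ranks of 99.3 in fed and 98.7 in starved livers. That of Baz1b, a chromatin remodelling gene, was in 3 fed libraries and 1 starved library, at 37.8 and 2.84, and that of Bcl7b in 3 fed libraries and no starved library, at 16.6. Those of Bud23 and Tbl2 were called in 1 fed library, at 7.51 and 9.89. The Rusc1 promoter, in the Pklr window, carried a site in all 6 libraries at 96.3 and 95.8. The promoter of Samm50, which encodes an assembly protein of the outer mitochondrial membrane and lies next to Pnpla3, carried a site in 3 fed libraries and 1 starved library at 47.9 and 8.84. These genes were described after the values were seen and were not tested.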
